A study of Rattus norvegicus with 17 samples.

Results

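The corticosteroid receptors and a small set of glucocorticoid response genes were followed in left hippocampal CA1/CA2 tissue of middle-aged rats. The 5 genes were chosen by Ensembl identifier, out of 26402 genes in the table and 13853 genes that passed a filter on low values, and all 5 passed it. They are the receptors Nr3c1 (ENSRNOG00000014096) and Nr3c2 (ENSRNOG00000034007) and the response genes Fkbp5 (ENSRNOG00000022523), Sgk1 (ENSRNOG00000011815) and Per1 (ENSRNOG00000007387). The symbols are those listed with the identifiers when the genes were chosen, and they could not be checked against the RefSeq gene table used here, in which 0 of the 26402 identifiers were found.

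Glucocorticoid hormones reach neurons of the hippocampus through a pair of nuclear receptors that act as transcription factors. Nr3c1 encodes the glucocorticoid receptor, which is largely occupied when hormone is high, as during stress, and Nr3c2 encodes the mineralocorticoid receptor, which binds corticosterone with higher affinity and is abundant in hippocampal pyramidal neurons. Fkbp5 encodes a co-chaperone of the glucocorticoid receptor complex that lowers its hormone binding, Sgk1 a serum- and glucocorticoid-regulated kinase, and Per1 a repressor of the circadian clock that is also an immediate response gene, and all 3 are known to be induced by glucocorticoids.

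The animals were male Fischer-344 rats of 12 months, and RNA was sequenced from 1 tissue sample per rat. Vehicle rats (n = 10) were given polyethylene glycol and ENZ rats (n = 7) were given Enzastaurin, an inhibitor selective for the beta isoform of protein kinase C, at 25 mg/kg in 0.4 mL of the same carrier. Both groups had 3 daily subcutaneous injections and were trained in a water maze over the same days, and tissue was taken right after the probe trial. Every rat was therefore injected and maze-tested, and no rat without these handling steps was measured here, so the level of the response genes before handling is not known from these data. Rats are named by group and number, G1 for vehicle and G2 for ENZ.

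Values are normalized counts, that is reads per gene divided by 1 size factor per rat. The total on genes ran from 2716777 to 20731523 reads in 16 rats, but vehicle rat G1_80 had 33422 reads. In that rat 1 read is worth 103.4 normalized counts, and 0 reads allow a level of up to 310.1 normalized counts (a limit of 3 reads, counting error only). It held 0 reads of Nr3c1, 1 of Nr3c2, 3 of Fkbp5, 0 of Sgk1 and 3 of Per1, where the median of the other vehicle rats would have given 3.24, 3.92, 6.66, 3.84 and 4.27 reads. The levels of these genes could not be measured at this depth, so results are given for 16 rats (9 vehicle, 7 ENZ), and then with rat G1_80. The study removed outlying samples found by principal components, which it did not name, and reported 7 rats per group, so its set of rats was another. Of the 16 rats, vehicle rat G1_44 lay farthest from the median expression profile (0.478 on the log2 scale) and was kept. In bulk tissue, a smaller number of cells that express a gene and less of its RNA per cell cannot be told apart. The makeup of the dissected tissue was not checked here, since the marker genes of the hippocampal cell types are not paired with identifiers in the tables used.

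For none of the 5 genes did the difference between ENZ and vehicle rats pass the test. At an adjusted p under 0.05 (limma with Benjamini-Hochberg adjustment over 13853 genes) 0 of the 5 genes were called, beside 0% of all genes tested, and at an unadjusted p under 0.05 again 0 of the 5 were called, beside 2.34% of all genes (324 genes). On the recovered reads of the same rats edgeR and DESeq2 also called 0 genes after adjustment, with 338 and 241 genes at an unadjusted p under 0.05. For all 5 genes the ENZ and vehicle levels overlapped. The share of all genes that overlap was not taken, so this count is not read as particular to the 5.

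**Figure D1:**
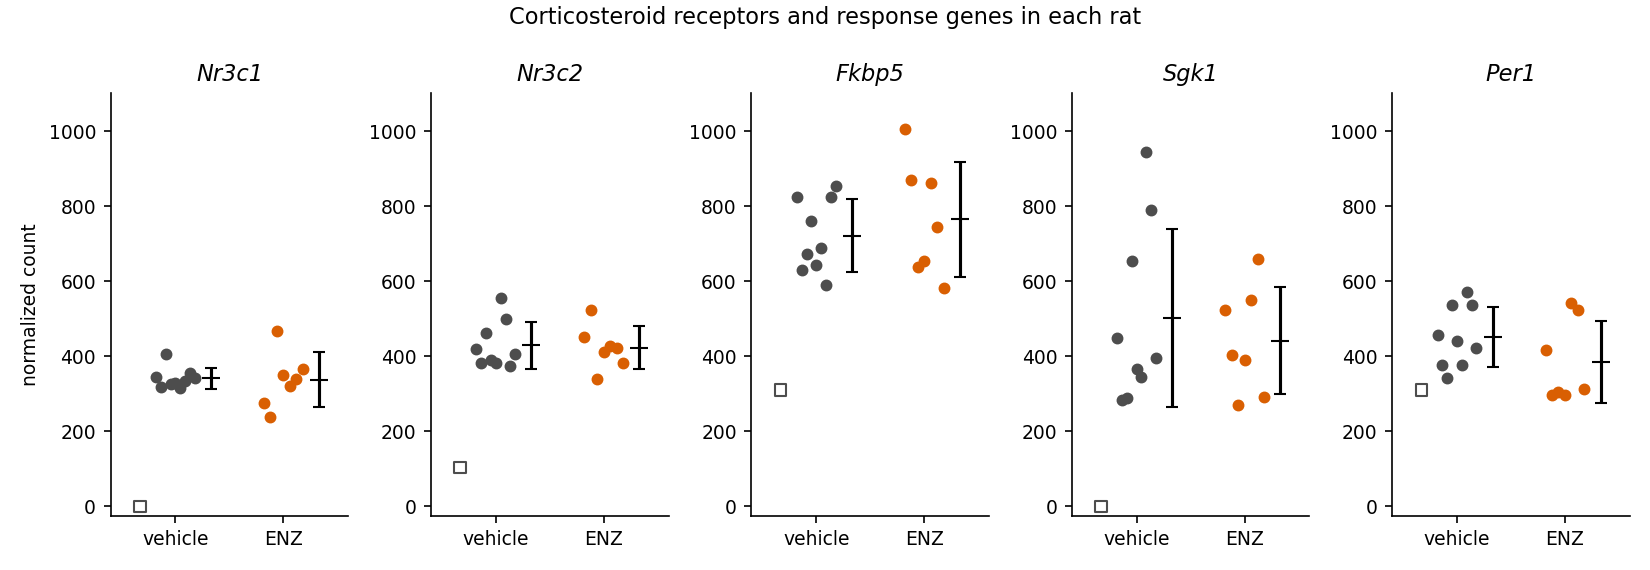
Normalized count of each gene (y axis) in each vehicle (grey) and ENZ (orange) rat, with bars for the mean ± SD of 9 vehicle and 7 ENZ rats. The hollow square is vehicle rat G1_80, which is not in the mean. The groups overlap for all 5 genes, a count without the share of all genes beside it. Sgk1 is spread most widely, from 270.0 to 943.6 normalized counts over 16 rats.

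Nr3c1 ran from 315.1 normalized counts (rat G1_53) through a median of 335.0 to 405.4 (rat G1_143) in vehicle rats. In ENZ rats it ran from 239.0 (rat G2_125) through 338.4 to 468.2 (rat G2_152). The lowest 2 and the highest level over all 16 rats thus came from ENZ rats, and the vehicle range lay within the ENZ range. The means were 340.8 ± 27.3 in 9 vehicle rats and 337.0 ± 72.8 in 7 ENZ rats (SD). The log2 fold change was -0.041 with an SE of 0.10 and a 95% interval of -0.25 to 0.17 (limma, unadjusted p = 0.690, adjusted p = 0.999788, exact two-sided permutation p = 0.722). The SD of the log2 level was 2.81 times larger in ENZ than in vehicle rats, a ratio exceeded by 1.48% of 13853 genes, but a two-sided exact permutation test of that ratio, chosen after the values were seen, gave p = 0.117 (0.292 adjusted over the 5 genes).

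Nr3c2 ranged from 373.7 normalized counts (rat G1_89) through 404.9 to 553.9 (rat G1_53) in vehicle rats, and from 339.1 (rat G2_152) through 421.9 to 523.2 (rat G2_125) in ENZ rats. The ENZ rat with the highest Nr3c1 had the lowest Nr3c2, and the one with the lowest Nr3c1 had the highest Nr3c2. The means were 429.6 ± 62.8 (SD, n = 9) and 422.2 ± 57.3 (SD, n = 7), and the log2 fold change was -0.024 (SE 0.091, 95% interval -0.22 to 0.17, adjusted p = 0.999788, exact permutation p = 0.816).

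Fkbp5 lay between 588.8 (rat G1_8) and 853.5 (rat G1_98) normalized counts in vehicle rats, with a median of 688.6. In ENZ rats it lay between 582.3 (rat G2_71) and 1006 (rat G2_116), with a median of 744.4. The 3 highest levels of the 16 rats were those of ENZ rats, and so was the lowest. The means were 720.4 ± 97.2 and 764.5 ± 152.9 normalized counts (SD, n = 9 and n = 7), with a log2 fold change of 0.073 (SE 0.11, 95% interval -0.15 to 0.30, adjusted p = 0.999788, exact permutation p = 0.549). It was 0.0031 without rat G2_116 and 0.13 without rat G2_71.

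Sgk1 was the gene with the widest spread. In vehicle rats it ran from 283.6 (rat G1_134) through 396.4 to 943.6 normalized counts (rat G1_8). In ENZ rats it ran from 270.0 (rat G2_152) through 402.7 to 659.5 (rat G2_62). The 2 highest levels were in vehicle rats G1_8 and G1_89, and the medians of the groups were close. The means were 501.7 ± 237.4 and 440.7 ± 142.5 normalized counts (SD, n = 9 and n = 7), and the log2 fold change of -0.12 had a 95% interval of -0.65 to 0.40 (SE 0.25, adjusted p = 0.999788, exact permutation p = 0.669). It moved to 0.0064 without rat G1_8.

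Per1 had the largest difference in mean among the 5 genes relative to its error, and it too missed the threshold. Vehicle rats ran from 341.5 (rat G1_143) through 441.8 to 570.4 normalized counts (rat G1_8), and ENZ rats from 295.6 (rat G2_161) through 311.5 to 541.7 (rat G2_26). Of the 7 ENZ rats, 5 were below the vehicle median and 4 were below every one of the 9 vehicle rats, while rats G2_26 and G2_62 were among the 5 highest of the 16. The means were 451.1 ± 81.1 and 384.2 ± 109.6 normalized counts (SD, n = 9 and n = 7), and the log2 fold change was -0.26 (SE 0.14, 95% interval -0.56 to 0.043, unadjusted p = 0.0893, adjusted p = 0.999788, exact permutation p = 0.133). The unadjusted p fell under 0.05 without rat G2_26 (0.0203), G2_62 (0.0255) or G1_143 (0.0482). It rose to 0.190 without rat G2_161, 0.185 without rat G2_125 and 0.178 without rat G2_152. It was 0.0418 with the first 3 principal components of the rats as covariates, where 3.59% of all genes were called at that threshold, and 0.0409 with array weights, where 2.45% were. With the log10 of total reads as a covariate it was 0.151, with edgeR 0.128 and with DESeq2 0.124.

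With rat G1_80 included, 0 of 13844 genes were called at the adjusted threshold (0%) and 0.274% at an unadjusted p under 0.05, and again 0 of the 5 genes were called at either. The log2 fold changes became 0.80 for Nr3c1 (SE 0.97), 0.18 for Nr3c2 (SE 0.25), 0.19 for Fkbp5 (SE 0.18), 0.76 for Sgk1 (SE 1.04) and -0.21 for Per1 (SE 0.16). In this fit on log2(normalized count + 1) the sign of Nr3c1, Nr3c2 and Sgk1 turned with that 1 library, in which Nr3c1 and Sgk1 had no read. On the recovered reads of the 17 rats it did not: edgeR and DESeq2 gave log2 fold changes of -0.013 and -0.0049 for Nr3c1, -0.023 and -0.017 for Nr3c2 and -0.19 and -0.12 for Sgk1. The exact permutation p ran from 0.229 for Per1 to 0.790 for Sgk1 over these 17 rats.

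**Figure D2:**
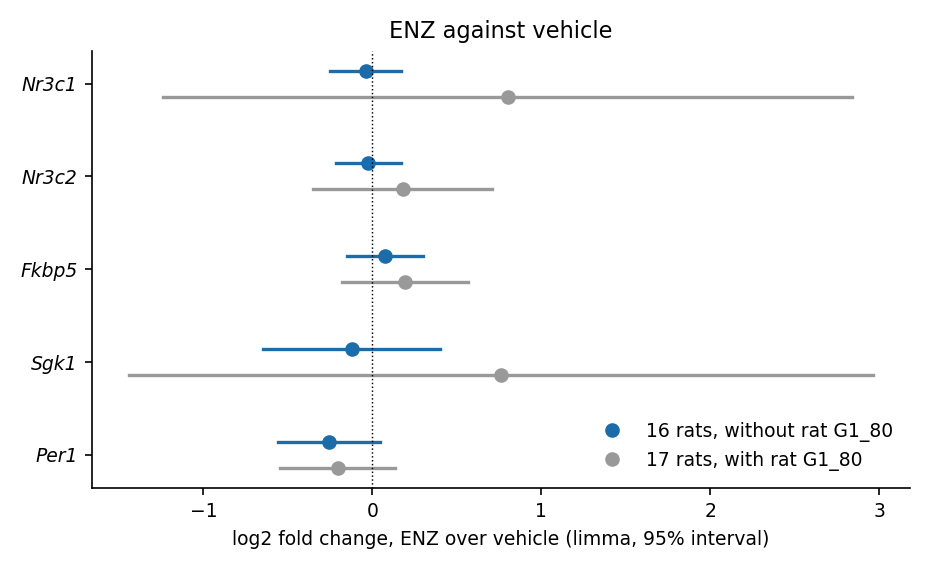
Log2 fold change of ENZ over vehicle (x axis) with its 95% interval from limma for each gene (y axis), in 16 rats (blue) and with vehicle rat G1_80 (grey). Every interval includes 0, and those of Nr3c1 and Sgk1 are several times wider when rat G1_80 is included.

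The 5 genes differed in how far they varied between rats. The coefficient of variation over 16 rats was 14.8% for Nr3c1, 13.7% for Nr3c2 and 16.5% for Fkbp5, beside a median of 13.8% over all genes tested. It was 23.1% for Per1 and 41.7% for Sgk1. All 5 genes are among the 4976 genes with a median of at least 200 normalized counts, whose median coefficient of variation was 9.27%. Of those genes, 80.4% varied less than Nr3c2, 84.4% less than Nr3c1, 88.2% less than Fkbp5, 95% less than Per1 and 99.2% less than Sgk1. The counting error of the 5 genes was 3.43% to 5.04%. The 3.50-fold range of Sgk1 ran from rat G2_152, with 207 reads of the gene, to rat G1_8, with 3684. Within vehicle rats alone the coefficient of variation of Sgk1 was 47.3%, and within ENZ rats it was 32.3%.

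Co-variation across rats was then examined, since all rats had the same number of daily injections and maze trials, though the substance injected differed between the groups. The labels do not give the hour at which the tissue of a rat was taken or its time since injection. The part of these times in the relations below was not tested. The study tested its rats in separate squads balanced for treatment, but the labels do not give the squad of a rat, so no value within a squad could be given and the part of the squads in these relations was not tested. Pearson's r and Spearman's rho were taken on log2(normalized count + 1) for the 10 pairs of the 5 genes, with two-sided permutation tests (100000 resamples) and Benjamini-Hochberg adjustment over the 10 pairs. Sgk1 and Per1 rose and fell together, and they were the one pair of the 10 that passed.

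Rats G1_8, G1_89 and G1_18 had Sgk1 at 943.6, 789.6 and 652.8 normalized counts and Per1 at 570.4, 535.4 and 536.8, and these 3 rats were among the 4 highest for both genes. Rats G2_152 and G2_71 had Sgk1 at 270.0 and 290.7 and Per1 at 305.2 and 311.5, and they were the 2 rats among the 4 lowest for both, while the 4 lowest for Per1 were all ENZ rats. Rats high for the pair came from both groups, as ENZ rats G2_62 and G2_26 had Sgk1 at 659.5 and 549.3 and Per1 at 522.8 and 541.7. Over 16 rats r was 0.825 and rho 0.759 (permutation p = 0.00015 for r, adjusted p = 0.0015), and r was 0.919 without rats G2_161 and G2_125, the 2 farthest from the median of Per1. On the log2 scale Per1 changed by 0.50 per unit of Sgk1, and the pair shared 68.0% of its variance.

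**Figure D3:**
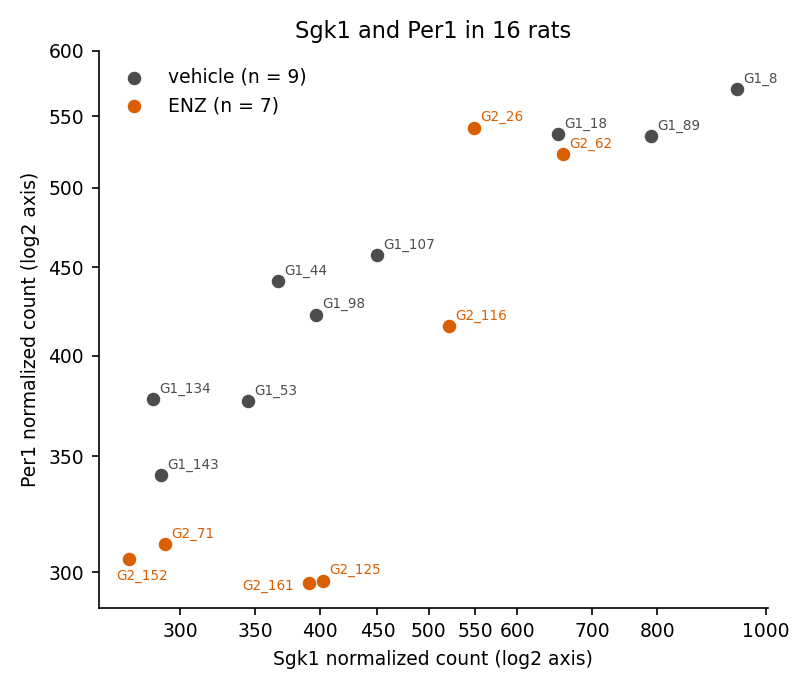
Sgk1 (x axis) against Per1 (y axis) in normalized counts on log2 axes, 1 point per rat, vehicle grey and ENZ orange. The points rise together over both groups (r = 0.825, 16 rats), and ENZ rats G2_161 and G2_125 lie below the rest.

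Among 13852 other genes, 8 (0.0578%) had a higher r with Per1 than Sgk1 had, and 5 (0.0361%) had a higher r with Sgk1 than Per1 had. The relation was present within vehicle rats, where r was 0.955 (exact permutation p = 5.51e-05, 0.000551 adjusted over the 10 pairs, n = 9), and no other gene had a larger absolute r with Sgk1 in those rats than Per1. Within ENZ rats r was 0.844 (exact permutation p = 0.0343, adjusted p = 0.140, n = 7), where 375 of the 13852 genes had a larger absolute r with Per1 and 249 with Sgk1. It was 0.656 in the 5 rats left without G2_26 and G2_62. By rank, rho was 0.679 within the 7 ENZ rats (exact permutation p = 0.110, adjusted p = 0.198). Within the 9 vehicle rats it was 0.917 (exact permutation p = 0.00131, adjusted p = 0.0131). The r of the groups did not pass a test of their difference (permutation of the group labels after centring on group means, p = 0.191, adjusted p = 0.476). Both genes had an r of 0.25 with the log10 of total reads per rat, and the r between them was 0.813 with reads held constant and 0.880 with the first 3 principal components held constant. Leaving out 1 rat at a time gave an r of 0.797 to 0.864. With rat G1_80, where Sgk1 had 0 reads, r was 0.472 (permutation, adjusted p = 0.0227).

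Fkbp5 did not follow the other response genes closely. Its r was 0.264 with Per1 (rho 0.182) and 0.324 with Sgk1 (rho 0.447), and both had an adjusted p of 0.529 by permutation. Rat G1_8, highest for Sgk1 and Per1, was the second lowest of 16 for Fkbp5, at 588.8 normalized counts. Without that rat the r of Fkbp5 was 0.643 with Sgk1 (permutation p = 0.0111, adjusted p = 0.0556) and 0.457 with Per1 (adjusted p = 0.176). Without rats G1_8 and G1_89, which had the most Sgk1, the r of Fkbp5 and Sgk1 was 0.648, and without rat G1_89 alone it was 0.272. The lower end was shared more than the upper: rats G1_134, G2_152 and G2_71 were among the 4 lowest for both Sgk1 and Fkbp5, and no rat was among the 4 highest for both. With rat G1_80 the r of this pair was 0.822, a value set by that 1 library, which had the lowest level of both genes.

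Over 16 rats, no r between a response gene and a receptor passed the adjustment. Per1 had an r of -0.106 with Nr3c1 and -0.0059 with Nr3c2, and Sgk1 had -0.271 and 0.176. Fkbp5 and Nr3c1 had the most negative r of these pairs, which missed the threshold once adjusted (r = -0.528, rho -0.438, permutation p = 0.0327, adjusted p = 0.109), and its r with Nr3c2 was 0.179. Within the 7 ENZ rats the rho of Fkbp5 was -0.929 with Nr3c1 and 0.929 with Nr3c2. Each had an exact permutation p = 0.00675 (0.0225 adjusted over the 10 pairs). The r of these pairs was -0.766 and 0.730 (adjusted p = 0.140 for both). The receptors put those rats in exactly reversed order, so the rho values count as 1 observation. Of 13852 other genes, 1524 had a larger absolute r with Nr3c1 in ENZ rats than Fkbp5 had, and 2249 with Nr3c2. From the side of Fkbp5, 385 genes had a larger absolute r with it than Nr3c1 had, and 600 than Nr3c2 had. These counts are for r, and none was taken for the rho of Fkbp5. With rat G1_80, r passed the adjustment for Sgk1 and Nr3c2 (0.923) and for Fkbp5 and Nr3c2 (0.785), with an adjusted p of 0.0359 by permutation for both. These values were set by that 1 library, which had the lowest level of all 3 genes, and without it they were 0.176 and 0.179.

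**Figure D4:**
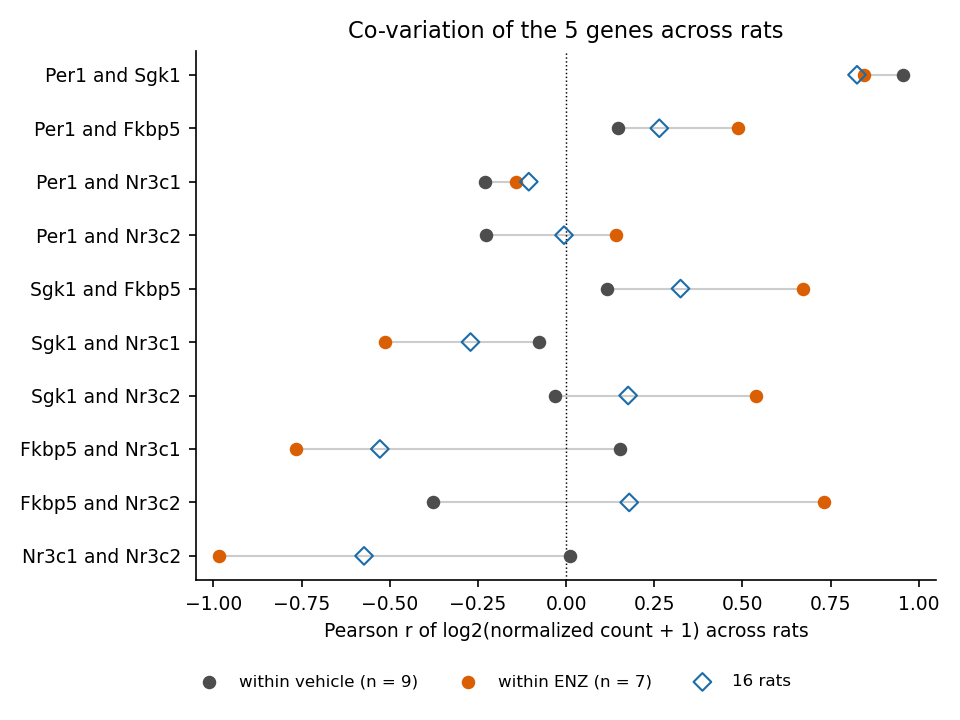
Pearson r across rats (x axis) for each pair of genes (y axis) over 16 rats (diamonds), within 9 vehicle rats (grey) and within 7 ENZ rats (orange). The r of Sgk1 and Per1 is 0.955 within vehicle and 0.844 within ENZ rats, where it missed the adjusted threshold. That of Nr3c1 and Nr3c2 is 0.011 within vehicle and -0.984 within ENZ rats.

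The receptors were related to each other in ENZ rats and not detectably in vehicle rats. From the lowest Nr3c1 to the highest, ENZ rats G2_125, G2_116, G2_26, G2_62, G2_161, G2_71 and G2_152 had Nr3c1 at 239.0, 276.1, 321.2, 338.4, 349.1, 367.1 and 468.2 normalized counts. In the same rats Nr3c2 was 523.2, 450.5, 428.1, 421.9, 410.5, 382.4 and 339.1. The order of the rats for one receptor was thus the exact reverse of their order for the other (rho = -1, exact permutation p = 0.000397, 0.00397 adjusted over the 10 pairs). Pearson's r within ENZ rats was -0.984 (exact permutation p = 0.000794, adjusted p = 0.00794, n = 7), between -0.994 and -0.970 with 1 ENZ rat left out at a time, and -0.923 in the 5 rats left without G2_125 and G2_152, the farthest from the median of Nr3c1.

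In the 9 vehicle rats r was 0.011 (rho -0.083, exact permutation p = 0.978). Rat G1_143, for example, had more Nr3c1 than any other vehicle rat, 405.4 normalized counts, and the third-highest Nr3c2 of that group, 462.1. Within vehicle rats r was -0.373 without rat G1_143 and 0.426 without rat G1_53, so its value near 0 depended on single rats. Nr3c1 also varied little in vehicle rats, with a coefficient of variation of 8.01% and a counting error of 4.79%. The r of the groups differed by a permutation test of the group labels (p = 0.000962, 0.00962 adjusted over the 10 pairs). The test was added after the values were seen, and its p stayed between 0.000311 and 0.00679 with 1 rat left out at a time. Each gene was first centred on its group mean, so the test is approximate though it covers every assignment of the labels. It does not separate a difference in r from a difference in the spread of Nr3c1. Over the 16 rats together r was -0.573 (rho -0.503, permutation p = 0.0210, adjusted p = 0.105), and it rested on rats G2_125 and G2_152, without which it was -0.166. Leaving out vehicle rat G1_143 instead gave -0.686 (adjusted p = 0.0220).

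**Figure D5:**
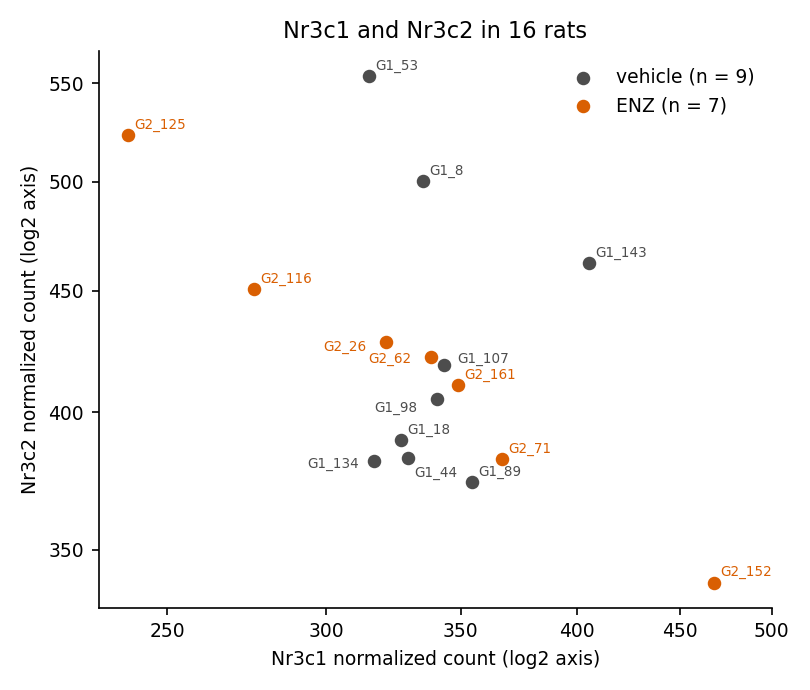
Nr3c1 (x axis) against Nr3c2 (y axis) in normalized counts on log2 axes, 1 point per rat, vehicle grey and ENZ orange. The 7 ENZ rats fall along a line from rat G2_125 to rat G2_152, and the 9 vehicle rats show no such line.

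Among the 13852 other genes, 4 had a larger absolute r with Nr3c1 in ENZ rats than Nr3c2 had, 10 genes (Nr3c2 included) put the 7 ENZ rats in the reverse of their Nr3c1 order, and 4 put them in the same order. The median absolute r of Nr3c1 with these genes was 0.406 within the 7 ENZ rats and 0.247 within the 9 vehicle rats. Genes in general thus had a larger absolute r with Nr3c1 in ENZ rats. Whether the group difference is particular to the receptor pair was not tested. Both receptors also followed the second principal component of the 16 rats, which held 15.2% of the variance, with an r of -0.751 for Nr3c1 and 0.645 for Nr3c2. Rats G2_125 and G2_152 were at its ends, at 34.0 and -25.1. With the first 3 components removed, r was -0.796 within ENZ rats and 0.680 within vehicle rats. The same permutation test of the difference gave p = 0.0035. The log2 ratio of Nr3c2 to Nr3c1 in a rat summarised the same values. It averaged 0.33 ± 0.23 (SD, n = 9) in vehicle rats, from 0.076 to 0.81, and 0.34 ± 0.50 (SD, n = 7) in ENZ rats, from -0.47 in rat G2_152 to 1.13 in rat G2_125.

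The genes most like the response genes were looked for among 9648 genes with a median of at least 50 normalized counts, by their r over 16 rats with the mean of the standardized log2 levels of Fkbp5, Sgk1 and Per1. ENSRNOG00000009565 was nearest (r = 0.882), from 22.2 normalized counts in rat G2_152 to 154.7 in rat G1_89. It followed Per1 (r = 0.908) and Sgk1 (r = 0.865) more than Fkbp5 (r = 0.355). ENSRNOG00000000577 was next (r = 0.879), and it too was lowest in rat G2_152 (313.0) and highest in rat G1_89 (696.2). The most opposite were ENSRNOG00000043102 (r = -0.850) and ENSRNOG00000032703 (r = -0.836), both highest in rat G2_152 and lowest in rat G2_26. These values are a description, and the identifiers are not paired with names in the tables used here. For the same reason the other glucocorticoid-induced genes, receptor chaperones and clock genes were not analysed here.

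Because Sgk1 and Per1 moved together, the sequence at their start sites is shown. RefSeq (assembly GRCr8) gives windows of 300 bases, 250 before and 50 from the start site on, 1 for Per1 (chr10:54304126-54304425, + strand) and 3 for Sgk1, numbered here 1 (chr1:24807182-24807481), 2 (chr1:24805521-24805820) and 3 (chr1:24804782-24805081), all on the - strand. They are printed 5′ to 3′, with the 50 bases from the start site on in capitals. These are starts of annotated transcripts that lie inside the gene: the outer end of the gene is 5374 bases further upstream for Per1 and 109655, 111316 and 112055 bases for the Sgk1 windows, and the sequence there was not searched.
Per1: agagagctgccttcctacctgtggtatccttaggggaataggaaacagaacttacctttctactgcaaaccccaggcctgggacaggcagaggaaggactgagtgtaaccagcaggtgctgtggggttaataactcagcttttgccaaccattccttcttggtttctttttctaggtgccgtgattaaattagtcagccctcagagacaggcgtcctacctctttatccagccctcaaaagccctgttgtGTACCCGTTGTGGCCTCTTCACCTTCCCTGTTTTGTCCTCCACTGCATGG
Sgk1 window 1: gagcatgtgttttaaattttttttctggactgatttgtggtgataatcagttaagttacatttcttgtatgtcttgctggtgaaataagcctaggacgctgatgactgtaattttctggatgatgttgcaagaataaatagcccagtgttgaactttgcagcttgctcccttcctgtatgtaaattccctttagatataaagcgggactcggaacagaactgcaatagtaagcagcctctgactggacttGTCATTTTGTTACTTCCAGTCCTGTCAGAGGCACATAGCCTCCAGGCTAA
Sgk1 window 2: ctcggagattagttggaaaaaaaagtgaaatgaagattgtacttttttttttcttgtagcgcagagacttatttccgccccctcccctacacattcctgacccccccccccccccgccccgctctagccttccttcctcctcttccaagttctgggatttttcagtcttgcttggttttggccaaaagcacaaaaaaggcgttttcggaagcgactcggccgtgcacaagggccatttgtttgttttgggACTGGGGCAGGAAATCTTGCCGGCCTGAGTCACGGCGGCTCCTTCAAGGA
Sgk1 window 3: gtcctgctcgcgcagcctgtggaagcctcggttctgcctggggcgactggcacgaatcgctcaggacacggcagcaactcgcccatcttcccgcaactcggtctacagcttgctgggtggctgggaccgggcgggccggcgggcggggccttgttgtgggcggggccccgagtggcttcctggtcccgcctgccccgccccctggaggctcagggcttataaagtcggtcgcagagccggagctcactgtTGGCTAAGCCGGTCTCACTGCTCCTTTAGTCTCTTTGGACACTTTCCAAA

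Of the 5 genes, 4 had a window in the table, 7 windows in all. No window of these 4 genes held TGTTCT, the half-site bound by corticosteroid receptors, on either strand, a motif found in 20.7% of all 33469 windows. None held the full palindromic response element (0.0149% of all windows), the E-box CACGTG (6.42%), the cyclic AMP response element TGACGTCA (1.83%) or its half-site TGACG (21.2%), which is contained in the full element and was added to the search later. The windows of Nr3c1 (30289 and 31069 bases) and Fkbp5 (33672 bases) also start inside the outer end of the gene. The search says only that these letters are not in these windows, and nothing of the rest of the genes' upstream sequence. The GC content was 50.3% for Per1 and 40.7%, 51.7% and 66% for the Sgk1 windows, with a median of 51.7% over all windows.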

How the data were processed

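Gene expression was measured by RNA sequencing (TruSeq libraries, total RNA) in 17 rats, 10 vehicle and 7 ENZ, grouped by the treatment label. Per the labels, the authors used bcl2fastq, STAR (2.4.0a), featureCounts (1.4.4) and DESeq2 with build rn5. Neither the annotation release nor the strandedness of counting is given in the sources used here. The deposited normalized counts (a non-negative signal) were obtained by the authors by dividing reads by 1 size factor per rat. What 1 read is worth in each rat was recovered from low values, and 100% of values were whole within 0.1 read. The depth per rat is given above.

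Differences between ENZ and vehicle were tested with limma (3.58.1, under R 4.3.3, trended variance) on log2(normalized count + 1), which understates changes of low genes, over genes with a median of at least 5. Correlations and exact permutation tests were two-sided and used Python 3.11.15, scipy 1.17.1 and numpy 2.4.6. DESeq2 (1.42.0) and edgeR (4.0.16) on the recovered reads were alternatives. Others were the pseudocount (0.1 or 5), the filter, normalization, covariates, array weights and the rats included. The model fit and the correlations were tested on simulated data. The 5 genes, the lists and the tests were chosen with earlier results of these data known. Beside the 5, the rule named the 2 genes with the highest and the 2 with the lowest r to the mean of the response genes. Promoter windows came from RefSeq GRCr8 and no coordinates were converted between builds. The tests of spread and of group differences in r were added after the data were seen.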

Additional observations from a re-analysis of the deposited data

Results flagged for a closer look

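The correlation of Nr3c1 and Nr3c2 differed between ENZ and vehicle rats by a permutation test of the group labels (p = 0.000962, 0.00962 adjusted over the 10 pairs of genes). Genes were centred on group means first, so the test is approximate, and a difference in spread can enter it. The median absolute r of Nr3c1 with all other genes was also larger within ENZ (0.406) than within vehicle rats (0.247). The same test gave p = 0.0127 (0.0580 adjusted) for Fkbp5 and Nr3c1, with an r of -0.766 within ENZ and 0.153 within vehicle rats, and p = 0.0174 (0.0580 adjusted) for Fkbp5 and Nr3c2, with an r of 0.730 and -0.377. Both of the latter missed the threshold after adjustment. By rank, Fkbp5 within ENZ rats had a rho of -0.929 with Nr3c1 and 0.929 with Nr3c2 (exact permutation p = 0.00675, 0.0225 adjusted, n = 7), but since the receptors put those rats in exactly reversed order these are 1 observation and not 2. Of 13852 other genes, 1524 had a larger absolute r with Nr3c1 in ENZ rats than Fkbp5 had, and 2249 with Nr3c2.

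Rats that stood apart within their group were looked for by the gap to the nearest rat as a share of the group's range. Vehicle rat G1_143 was far above the other vehicle rats for Nr3c1 (0.563, against a critical value of 0.493 for 9 rats). With rat G1_80 in the group, that rat was far below the others for Nr3c1 (0.777), Nr3c2 (0.600) and Fkbp5 (0.513), against 0.466 for 10 rats. These flags rest on 0, 1 and 3 reads, where the median of the other vehicle rats would have given 3.24, 3.92 and 6.66. The levels of these genes in rat G1_80 could not be measured at its depth, so the flags do not show a lower level. In all 17 sets of values were examined, and chance alone puts about 1 in 20 past these limits.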

How the results depend on the processing

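No gene passed an adjusted p under 0.05 with limma under any alternative, or with edgeR or DESeq2. Genes at an unadjusted p under 0.05 numbered 324, against 38 over 17 rats, 497 with 3 principal components, 625 without a filter, 201 with the filter raised to 50 and 56 with DESeq2 over 17 rats. Fold changes near 0 turned in sign: Nr3c1 to 0.80 over 17 rats and 0.011 with the components, Nr3c2 to 0.18 over 17 rats and 0.018 with reads as a covariate, and Sgk1 to 0.76 over 17 rats. Leaving out 1 rat at a time gave -0.12 to 0.037, -0.077 to 0.027 and -0.23 to 0.0064 for these 3 genes. For Fkbp5 it gave 0.0031 to 0.13, and for Per1 -0.35 to -0.20. With edgeR or DESeq2 on the reads of all 17 rats no sign turned.

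The r of Per1 and Sgk1 missed the adjusted threshold only within ENZ (0.844), and those of Sgk1 and Fkbp5 (0.822), Sgk1 and Nr3c2 (0.923) and Fkbp5 and Nr3c2 (0.785) passed it over 17 rats. Over 17 rats r turned to 0.276 for Per1 and Nr3c1, 0.267 for Per1 and Nr3c2, 0.958 for Sgk1 and Nr3c1, 0.763 for Fkbp5 and Nr3c1 and 0.911 for Nr3c1 and Nr3c2, where rat G1_80 is lowest for each gene but Per1. With components removed r turned to 0.210 for Per1 and Nr3c2, -0.018 for Sgk1 and Nr3c2, -0.165 for Fkbp5 and Nr3c2 and 0.140 for Nr3c1 and Nr3c2. Within vehicle it was -0.030 for Sgk1 and Nr3c2, 0.153 for Fkbp5 and Nr3c1, -0.377 for Fkbp5 and Nr3c2 and 0.011 for Nr3c1 and Nr3c2. Per1 and Nr3c2, near 0, also gave 0.029 (Spearman), 0.011 (without G1_80 and G1_44), 0.025 (TMM), 0.0067 (median of ratios) and 0.141 (within ENZ). Leaving out 1 rat gave -0.457 to 0.131 for Per1 and Nr3c1, -0.185 to 0.182 for Per1 and Nr3c2 and -0.0024 to 0.326 for Sgk1 and Nr3c2. The cause was not tested. No paired analysis was possible because the groups share no rat numbers and the labels give no squad.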
